A study of Homo sapiens with 6 samples.

Results

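ODAPH and 8 other genes of secreted phosphoproteins of the tooth and bone matrix (AMBN, ENAM, ODAM, DSPP, DMP1, IBSP, MEPE and SPP1) were examined in CaSki cells, an established human cervical squamous carcinoma line with integrated papillomavirus DNA. The members were the probe sets whose single annotated gene symbol was 1 of these 9 names, which gave 13 of the 54613 non-control probe sets and 9 of the 19775 genes with a single name. Cells given recombinant TGF-β1 at 2 ng/mL were compared with cells kept in medium without it, with 3 Affymetrix arrays in each group. Both groups were the same line in the same serum-containing medium, the time of treatment is not stated in the sources used here, and the labels do not say whether the 3 arrays came from separate cultures, so any error measures only the spread between these samples. ODAPH was selected on its treated minus untreated difference, the highest on these arrays, and the other genes because they belong to the same protein group. The values of this contrast are therefore given for the members as a description. Counts of members past the threshold and intervals are given only to place them among all probe sets and to show precision, and support nothing.

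These proteins belong to the secreted calcium-binding phosphoproteins, and several of them, though not all, are rich in acidic residues and phosphorylated serines. AMBN, ENAM, ODAM and ODAPH are products of enamel-forming ameloblasts or the epithelium at the tooth surface, while DSPP, DMP1, IBSP, MEPE and SPP1 form the SIBLING family of dentin and bone, whose members carry an integrin-binding motif. Squamous epithelium is not a mineralising tissue, although SPP1, which encodes osteopontin, is made by many epithelia and carcinomas, and TGF-β is itself a regulator of bone and tooth formation.

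All 9 genes lie on chromosome 4. In the RefSeq gene order ODAM comes first, AMBN and ENAM are adjacent after it, ODAPH follows with 33 protein-coding genes in between, and DSPP, DMP1, IBSP, MEPE and SPP1 stand next to each other 69 protein-coding genes further on. The start region of ODAPH is shown because ODAPH is the member whose transcript differed. It covers 250 bases before and 50 bases after the annotated start, at chr4:75555816-75556115 on the plus strand of GRCh38.p14, from RefSeq. Capitals mark every match to the motifs searched, which were chosen with the sequences in view.
ODAPH: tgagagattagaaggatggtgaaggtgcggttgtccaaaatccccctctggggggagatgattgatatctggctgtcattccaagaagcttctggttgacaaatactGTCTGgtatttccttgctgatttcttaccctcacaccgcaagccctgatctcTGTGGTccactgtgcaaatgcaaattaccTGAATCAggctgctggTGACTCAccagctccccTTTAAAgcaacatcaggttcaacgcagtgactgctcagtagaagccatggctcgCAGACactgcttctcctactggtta

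The search covered both strands and 7 motifs, and the matches in ODAPH did not overlap each other. AP-1, the factor family of JUN and FOS, binds TGANTCA, and this stood at 62 and 46 bases before the start. Of 35116 RefSeq start regions of the same length, 7.71% held this motif and 0.515% held at least 2 copies. A RUNX motif, TGTGGT, stood 91 bases before the start and was present in 13.1% of start regions. The short SMAD motif CAGAC was matched once in reverse, 143 bases before the start, and once forward at base 26 after it, and 45.3% of start regions held it. The longer SMAD palindrome GTCTAGAC (0.202% of start regions) and the GC-rich SMAD motif GGCGCC (19.2%) were not among these letters. Matches describe the letters only.

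Of the 11 RefSeq start regions of the 9 genes, 5 shared an inverted CCAAT box, ATTGG, followed by TTTAAA after 10 to 50 bases, a pair held on the forward strand by 0.481% of all start regions. The pair was chosen with these member sequences in view, so its share among them is a description and supports nothing. CCAAT (34.6% of start regions, either strand) is the motif of the general factor NF-Y, and TTTAAA (12.2%) resembles a TATA box. The 5 stretches are shown because they hold the pair, which capitals mark. No member other than ODAPH was called in the comparison, and ENAM, IBSP and SPP1 were not called either but lacked the pair. All are on the plus strand of GRCh38.p14, at chr4:70195664-70195706 for ODAM, chr4:70592204-70592235 for AMBN, chr4:87608469-87608511 for DSPP, chr4:87650218-87650259 for DMP1 and chr4:87832906-87832947 for the second start region of MEPE.
ODAM: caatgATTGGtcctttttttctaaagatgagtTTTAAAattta
AMBN: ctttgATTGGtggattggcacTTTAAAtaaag
DSPP: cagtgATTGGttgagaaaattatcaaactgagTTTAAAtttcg
DMP1: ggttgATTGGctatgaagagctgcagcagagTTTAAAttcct
MEPE: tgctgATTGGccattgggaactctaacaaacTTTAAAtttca

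The ODAPH region held TTTAAA at 29 bases before the start without the ATTGG box. This was not particular to ODAPH. The SPP1 region held TTTAAA at 30 bases, and the first MEPE region at 123 bases before the start, also without ATTGG. No start region of a member other than ODAPH held 2 copies of the AP-1 motif, and ODAM held 1.

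The arrays gave log2 expression estimates per probe set, with array medians between 4.14 and 4.18. Over all probe sets, r was 0.9942 to 0.9963 for pairs of arrays within a group and 0.9916 to 0.993 for pairs across groups. The arrays numbered 1 stood apart in both groups in RNA quality, read as the 3' to 5' ratio of GAPDH and ACTB. This ratio was 1.15 on the treated and 1.19 on the untreated array numbered 1, against 0.69 to 0.863 on the other 4 (log2). The cells responded to TGF-β1: SMAD7, the inhibitory SMAD induced by the pathway, was at 6.66 ± 0.04 in treated and 4.99 ± 0.19 in untreated cells (log2, SD, n = 3 each), a difference of 1.67 (limma adjusted p = 1.1e-04). Marker genes were read by their brightest probe set, which favours levels above the array median. Of the 8 measured genes listed for squamous epithelium, 7 (KRT5, KRT14, CDH1, EPCAM, DSG3, SFN and PERP) lay above the array median on all 6 arrays. The eighth, KRT13, lay below it on all 6, at 2.54 ± 0.23 in treated and 2.97 ± 0.07 in untreated cells (log2, SD, n = 3 each). Some markers of osteoblasts, odontoblasts and ameloblasts also lay above it, so these levels alone do not identify squamous cells. The mean level of the 8 squamous-list genes was 9.04 to 9.19 on treated and 9.05 to 9.20 on untreated arrays. KRT14 rose by 0.77 and EPCAM differed by -0.70 (log2, limma adjusted p = 0.0049 and 0.0023), the 2 called of the 8.

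ODAPH, an enamel matrix phosphoprotein whose loss causes amelogenesis imperfecta, had 1 probe set. Its level was 8.91, 8.83 and 9.03 on the treated arrays, against 5.18, 4.92 and 5.21 on the untreated arrays (log2). The groups did not overlap, and the lowest treated array exceeded the highest untreated array by 3.62. The means were 8.92 ± 0.10 in treated and 5.11 ± 0.16 in untreated cells (log2, SD, n = 3 each), a difference of 3.82 ± 0.11 (limma standard error), or 14.1-fold. In such bulk RNA, more cells making a transcript and more of it per cell cannot be told apart.

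ODAPH stood far above the array medians with TGF-β1 and closer to them without it. The highest values on the treated arrays were 14.3 to 14.4 (log2). Treated levels lay 4.67 to 4.89 above the array median, and untreated levels 0.76 to 1.06 above it (log2). On the scale of ranks, the probe set stood at percentiles 93.9 to 94.7 of the treated and 61.6 to 65.1 of the untreated arrays. Its difference was the highest of all 54613 probe sets, the next being 2.90. These values chose the gene. Left out in turn, no single array took the difference outside 3.73 to 3.87, and without both arrays numbered 1 it was 3.87. With the 3' to 5' signal as a covariate it was 3.82. Only 1 probe set reads ODAPH on this array, so no second probe set bears on the value.

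**Figure D1:**
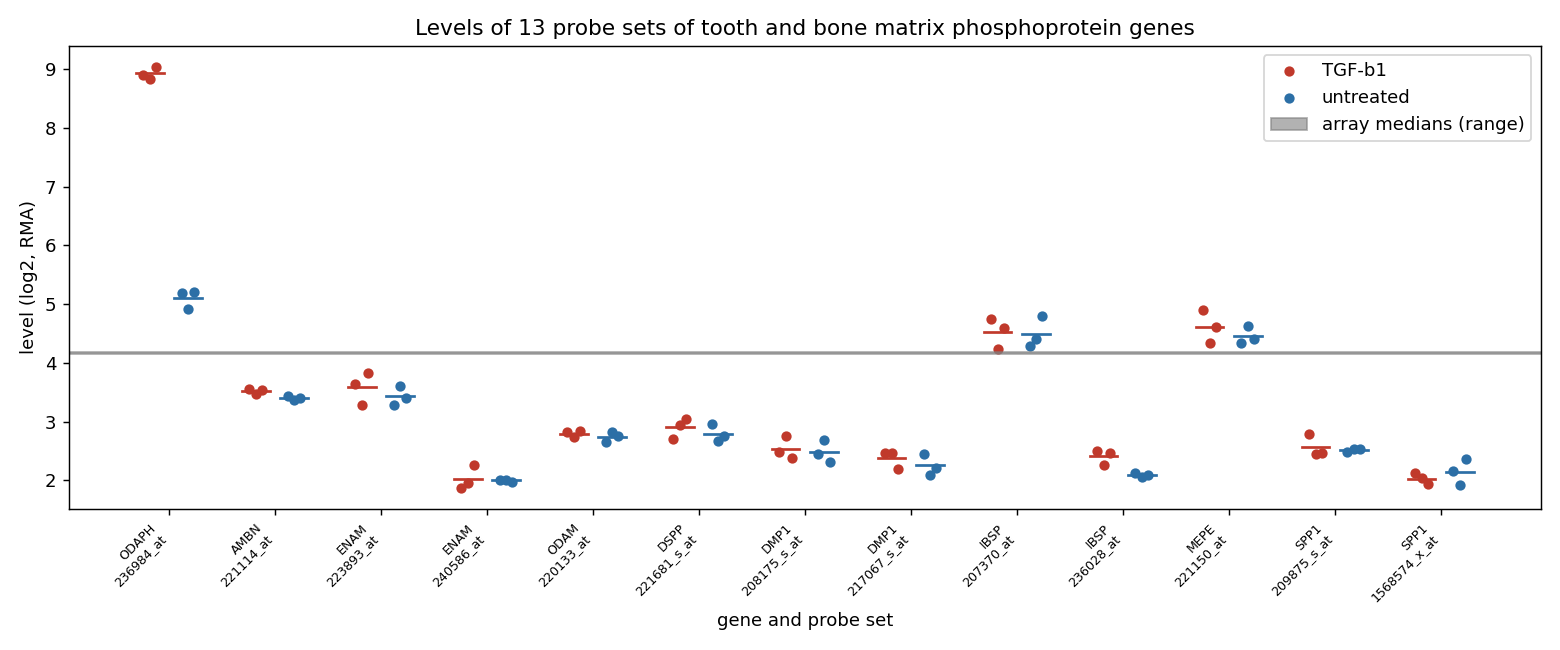
Level of each of the 13 probe sets on each array (vertical axis, log2 RMA values), with TGF-b1 arrays in red left of untreated arrays in blue, short lines at the group means and a grey band at the array medians. ODAPH lies between 8.83 and 9.03 on treated and between 4.92 and 5.21 on untreated arrays, while 10 of the other 12 probe sets lie below the array median on all 6 arrays.

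The other 8 genes had 12 probe sets, and 0 of them were past an adjusted p of 0.05 in the limma fit over all probe sets (1 at an unadjusted p below 0.05), where 3.24% of all probe sets were (1.69% higher and 1.55% lower with TGF-β1). ODAPH was past it, which follows from its selection as the highest difference, so nothing is read from the count of 1 in 13. The 12 differences ran from -0.12 to 0.32 with a median of 0.08 (log2), against a median of 0.00 over all probe sets and 0.02 over those below the median level. Of the 12, 11 were above 0, where 50.2% of all probe sets and 55.0% of those below the median level were above 0. Among the 12, 4 genes entered with 2 probe sets each, so the signs are not independent. Several signs turned in some alternative fit, with lowest differences of -0.084 (ENAM), -0.057 (DMP1), -0.188 (IBSP), -0.03 (MEPE) and -0.075 (SPP1), each for a single probe set. The rest of the 11 stayed above 0. The 95% intervals of the 12 lay between -0.39 and 0.53, and 11 of them spanned 0. Most of these probe sets were dim and no detection call was used, so the intervals describe these array values only. Of the 12, 10 lay below the array median on all 6 arrays, where RMA is known to compress differences, and only the probe sets of MEPE and 1 of IBSP lay above it on all 6.

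**Figure D2:**
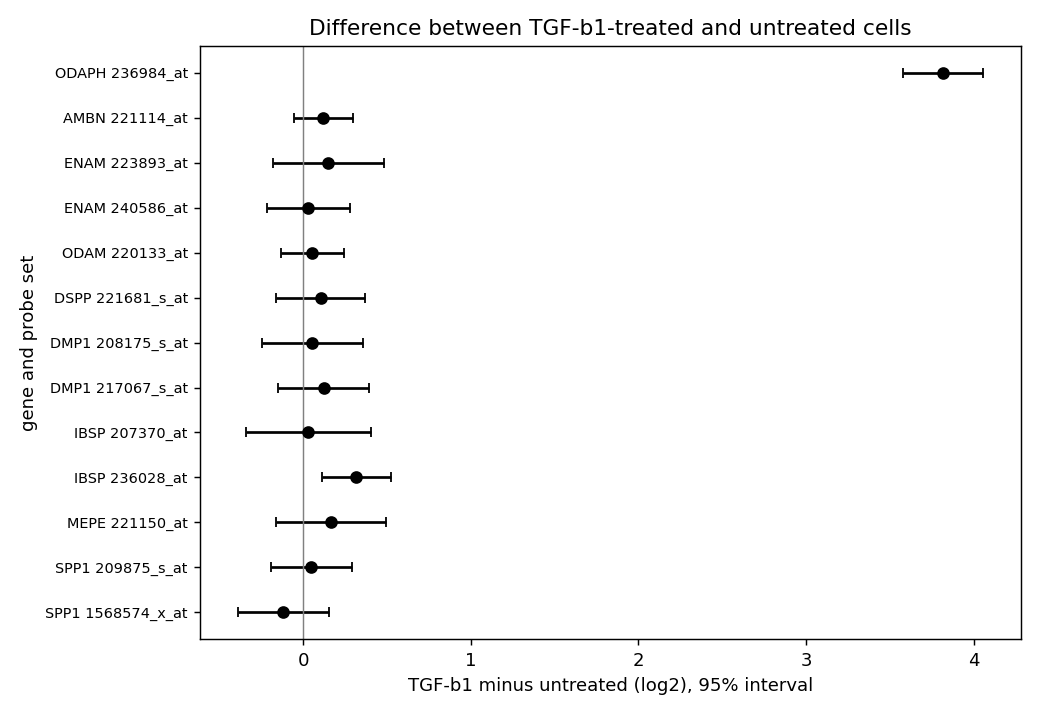
Difference between TGF-b1-treated and untreated arrays (horizontal axis, log2) for each of the 13 probe sets, with the 95% interval of limma for each probe set alone. ODAPH stands at 3.82, and the other 12 lie between -0.12 and 0.32.

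Among the enamel genes, AMBN, which encodes the adhesive enamel matrix protein ameloblastin, read 3.55, 3.47 and 3.54 on treated arrays, against 3.43, 3.37 and 3.40 on untreated arrays (log2). The groups did not overlap, but the gap between the nearest arrays was 0.05 and the difference 0.12 ± 0.08 (SE). Over all probe sets, 22.8% had groups that did not overlap, and 3 of the 13 member probe sets did so, those of ODAPH and AMBN and 1 of IBSP.

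ENAM, which encodes enamelin, a large protein that controls enamel thickness, had 2 probe sets that differed little between groups. The brighter one read 3.64, 3.28 and 3.82 on treated arrays, against 3.28, 3.60 and 3.41 on untreated arrays (log2). Its groups overlapped widely, with a difference of 0.15 ± 0.15 (SE). The other averaged 2.03 ± 0.20 in treated and 2.00 ± 0.02 in untreated cells (log2, SD, n = 3 each).

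ODAM, a protein of maturing ameloblasts and of the epithelium attached to the tooth, averaged 2.80 ± 0.05 in treated and 2.74 ± 0.08 in untreated cells (log2, SD, n = 3 each). Its groups overlapped, and it stood at percentiles 20.0 to 22.5 of the treated and 17.8 to 22.2 of the untreated arrays. The difference was 0.06 ± 0.08 (log2, SE).

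DSPP encodes the precursor of the main non-collagen proteins of dentin. It read 2.71, 2.95 and 3.05 on treated arrays, against 2.96, 2.67 and 2.76 on untreated arrays (log2). The groups overlapped and the difference was 0.11 ± 0.12 (SE).

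DMP1, which acts in dentin and in osteocytes, where it restrains the phosphate hormone FGF23, had 2 dim probe sets. The first averaged 2.54 ± 0.20 in treated and 2.48 ± 0.19 in untreated cells, and the second 2.38 ± 0.16 in treated and 2.26 ± 0.18 in untreated cells (log2, SD, n = 3 each). Both overlapped between groups. Both probe sets held the same value on 1 array, and the brighter ENAM probe set held the same value on 2 arrays. Repeats within 1 probe set across arrays, as for ENAM, occurred in 8.57% of probe sets below the median level and in 3.26% of those above it. These shares do not cover equal values of 2 probe sets on 1 array, as for DMP1.

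IBSP, which encodes bone sialoprotein, a nucleator of bone mineral, had 2 probe sets that did not show the same picture. The dim one read 2.50, 2.26 and 2.47 on treated arrays, against 2.13, 2.06 and 2.09 on untreated arrays (log2). Its groups did not overlap, and its difference of 0.32 ± 0.09 (SE) was the highest among the 12 probe sets. It stood at percentiles 6.92 to 12.8 of the treated and 2.39 to 3.77 of the untreated arrays. The brighter probe set read 4.75, 4.23 and 4.59 on treated arrays, against 4.28, 4.41 and 4.79 on untreated arrays, with overlapping groups and a difference of 0.03 ± 0.17 (log2, SE).

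MEPE, an osteocyte protein that yields a peptide inhibiting mineralisation, read 4.89, 4.35 and 4.61 on treated arrays, against 4.33, 4.62 and 4.40 on untreated arrays (log2). The groups overlapped and the difference was 0.17 ± 0.14 (SE). Levels were 0.19 to 0.71 above the array median in treated and 0.17 to 0.46 above it in untreated cells.

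SPP1, the most widely made of the SIBLING genes, was dim in these cells by both of its probe sets. The brighter one read 2.78, 2.45 and 2.47 on treated arrays, against 2.48, 2.54 and 2.53 on untreated arrays (log2). Treated array 1 was the highest, and the other 2 treated arrays lay below all untreated arrays. The difference was 0.05 ± 0.11 (SE), with a 95% interval from -0.19 to 0.29, and it turned to -0.06 without treated array 1. The other probe set, whose suffix marks shared sequence, averaged 2.03 ± 0.09 in treated and 2.15 ± 0.22 in untreated cells (log2, SD, n = 3 each), the 1 negative difference of the 12.

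The genes on either side of ODAPH did not share its difference. None of the 10 nearest protein-coding genes with a single-name probe set, 5 on each side, passed the threshold (limma, 0 of 10, with 2 at an unadjusted p below 0.05), where 4.88% of all genes were called by their brightest probe set. THAP6, the nearest on one side, averaged 5.38 ± 0.20 in treated and 5.57 ± 0.11 in untreated cells, and CDKL2, a kinase gene and the nearest on the other, 4.13 ± 0.18 in treated and 3.86 ± 0.20 in untreated cells (log2, SD, n = 3 each). RCHY1, a ubiquitin ligase, differed by 0.20 and the stress granule gene G3BP2 by -0.11 (log2). The growth factor genes BTC and EREG, which encode EGF receptor ligands, differed by -0.30 and -0.015, both at levels below the array median. PARM1, PPEF2, NAAA and SDAD1 differed by -0.12, -0.12, 0.04 and -0.14.

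**Figure D3:**
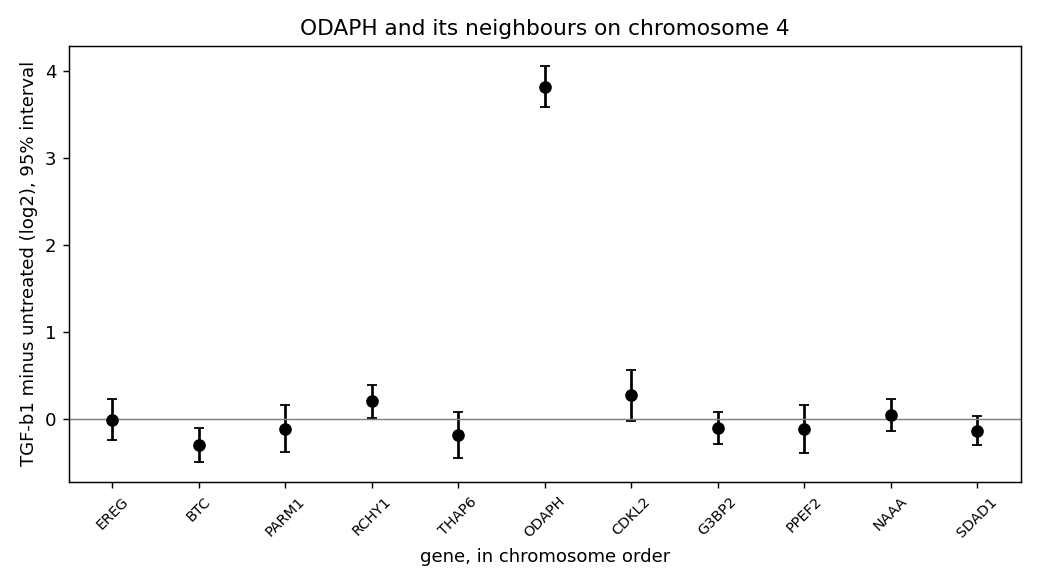
Difference between TGF-b1-treated and untreated arrays (vertical axis, log2, 95% interval of limma) for ODAPH and the 5 measured protein-coding genes on each side, in chromosome order at even spacing. ODAPH stands at 3.82 and its 10 neighbours lie between -0.30 and 0.27.

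Of other genes, those whose levels followed ODAPH most closely over the 6 arrays were sought among 209 probe sets that differed by at least 1 (log2) in either direction. They were ABCA1, a cholesterol exporter (r = 0.9995), LMCD1, a LIM-domain regulator (0.9994), GADD45B, a stress-response gene (0.9994), TP53INP1 (0.9993) and SERPINE2, a protease inhibitor (0.9993). The 6 points form 2 separate groups, so these values of r describe mainly the step between the groups. The differences of these probe sets were 2.01, 1.57, 1.26, 1.60 and 1.88 (log2), each smaller than that of ODAPH, which was the highest of all. The ranking used the signed r, so probe sets that fell with TGF-β1 could not be named.

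Genes that act with the matrix phosphoproteins were read in 7 lists, each gene by its brightest probe set over the 6 arrays. Of 81 measured genes, 8 were higher and 2 lower with TGF-β1, or 12.3% against 4.88% of all genes (2.51% higher and 2.37% lower), with a median difference of 0.02 against 0.00 (log2). The lists were chosen with earlier results of these data known, so these shares describe the lists and support nothing. The calls lay mostly among receptors and proteases. None of 13 other secretory calcium-binding phosphoproteins and their relatives was called (2 at an unadjusted p below 0.05), and all 13 lay below the array median on all 6 arrays. They included AMELX, which encodes amelogenin, the main enamel protein, at 2.55 ± 0.34 in treated and 2.38 ± 0.05 in untreated cells (log2, SD, n = 3 each), the saliva genes STATH and SMR3A, which differed by 0.16 and 0.29, the mucin gene MUC7 (-0.32), and SPARC, the matrix gene from whose lineage the family is thought to derive (-0.13).

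**Figure D4:**
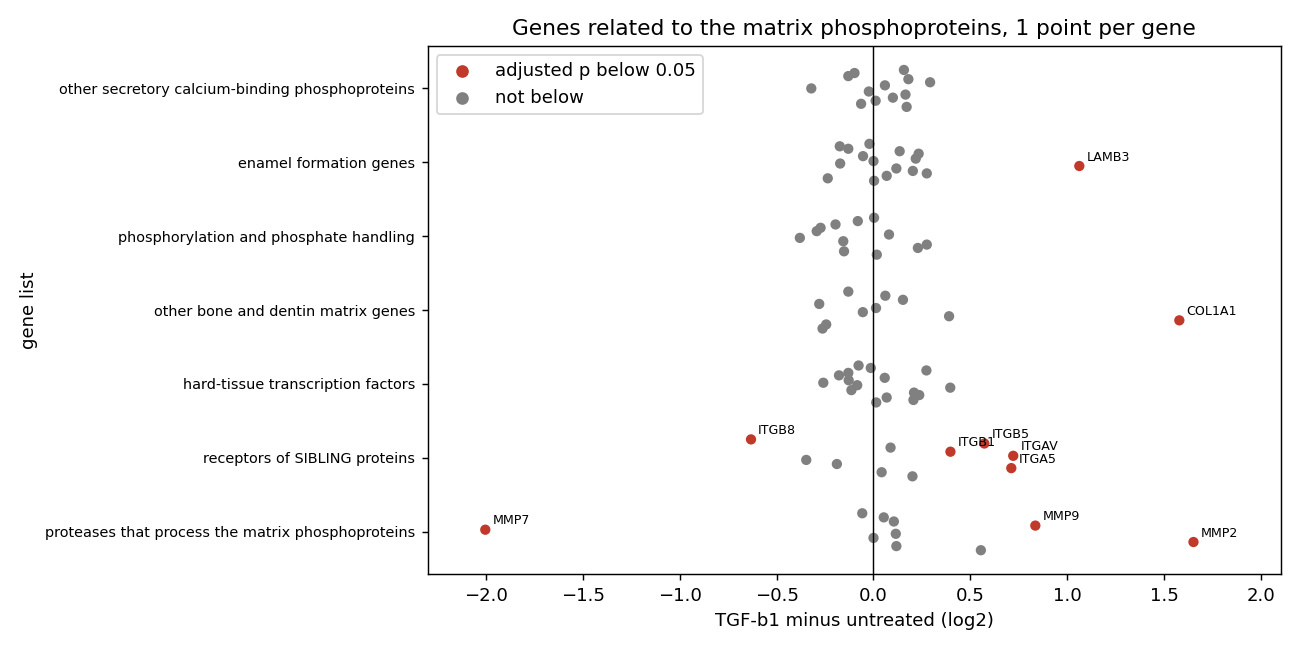
Difference between TGF-b1-treated and untreated arrays (horizontal axis, log2) for each measured gene of 7 related lists, 1 point per gene, with genes at an adjusted p below 0.05 in red and named. Most called genes are receptors and proteases, and the 13 relatives in the top row lie between -0.32 and 0.29.

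Among 16 measured genes needed for enamel formation, 1 rose and 0 fell, and the list's median was 0.04 (log2). The riser was LAMB3, a chain of the laminin that anchors epithelia to basement membrane. It averaged 9.69 ± 0.04 in treated and 8.63 ± 0.08 in untreated cells (log2, SD, n = 3 each), 2.09-fold higher with an adjusted p of 3e-04 (limma). The enamel proteases KLK4 and MMP20 differed by 0.12 and 0.00 (log2), with KLK4 above and MMP20 below the array median. CNNM4, ROGDI and ORAI1 differed by -0.24, 0.23 and 0.22 without passing (limma adjusted p = 0.24, 0.25 and 0.29).

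Genes of phosphorylation and phosphate handling gave 0 calls of 12 measured (limma, 2 at an unadjusted p below 0.05), with a median of -0.12 (log2). FAM20C, the secretory kinase that phosphorylates these matrix proteins, was at 7.44 ± 0.20 in treated and 7.82 ± 0.09 in untreated cells (log2, SD, n = 3 each), which differed by -0.38 (95% interval -0.64 to -0.12, limma adjusted p = 0.13). PHEX, a peptidase of phosphate control, differed by -0.29 (limma adjusted p = 0.1). The phosphate transporter SLC20A1 and the pyrophosphate exporter ANKH differed by -0.20 and -0.15. ALPL, the alkaline phosphatase of mineralising cells, averaged 3.40 ± 0.08 in treated and 3.38 ± 0.05 in untreated cells (log2, SD, n = 3 each), below the array median.

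Of 10 other genes of the bone and dentin matrix, 1 rose and 0 fell, with a median of -0.02 (log2). COL1A1, the main collagen chain of both tissues, averaged 9.37 ± 0.11 in treated and 7.80 ± 0.16 in untreated cells (log2, SD, n = 3 each), 2.99-fold higher (limma adjusted p = 1.4e-04). Of its 5 probe sets, a second one differed by 1.29, while the other 3 differed by 0.04 to 0.26. COL1A2, the partner chain, differed by 0.39 (limma adjusted p = 0.33), and MGP and ASPN, which restrain mineral growth, by -0.28 and -0.26 without passing.

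No transcription factor of hard-tissue cells was called among 16 measured (limma, 0 calls, 4 at an unadjusted p below 0.05), with a median of 0.00 (log2). RUNX2, the master regulator of osteoblasts, was well above the array median at 9.53 ± 0.08 in treated and 9.66 ± 0.03 in untreated cells (log2, SD, n = 3 each), which differed by -0.13 (95% interval -0.31 to 0.06). Its partner CBFB differed by 0.21, MSX1 by 0.40, PAX9 by -0.26 and the osteoblast factor SP7 by 0.27, none of which passed (limma adjusted p = 0.23, 0.24, 0.18 and 0.29).

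Receptors of the SIBLING proteins were the list with the most calls, 4 of 10 measured genes higher and 1 lower, with a median of 0.14 (log2). ITGAV, the integrin chain that binds osteopontin with several partners, averaged 10.6 ± 0.09 in treated and 9.88 ± 0.03 in untreated cells (log2, SD, n = 3 each), 1.65-fold higher (limma adjusted p = 0.0024). Its partner ITGB5 rose 1.49-fold and ITGA5, a fibronectin receptor chain, 1.64-fold (limma adjusted p = 0.0081 and 0.007). Of the 3 other ITGB5 probe sets, one differed by 0.865 (log2) and was called (limma adjusted p = 0.0044). The rest differed by 0.396 and 0.547 and were not called (limma adjusted p = 0.085 and 0.059). ITGB8 was 1.55-fold lower by its brightest probe set (limma adjusted p = 0.014). The 4 other ITGB8 probe sets were dim, differed by -0.244 to 0.081 (log2) and were not called. ITGB1 rose 1.32-fold by its brightest probe set (limma adjusted p = 0.035). That call was lost without any single array (adjusted p up to 0.13) and with the replicate block (adjusted p = 0.072). Among the 6 other ITGB1 probe sets, differences of 0.58 and 0.43 (log2) were also called (limma adjusted p = 0.0084 and 0.042). The rest were dim, differed by -0.10 to 0.07 and were not called. The ITGB8 call was lost without untreated array 2 or 3 (adjusted p = 0.065 and 0.06). CD44, another osteopontin receptor, differed by 0.20 (limma adjusted p = 0.26).

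Among 10 proteases and helpers that cut matrix phosphoproteins, 2 rose and 1 fell, with a median of 0.11 (log2). MMP2, a gelatinase that binds bone sialoprotein, averaged 7.06 ± 0.13 in treated and 5.41 ± 0.10 in untreated cells (log2, SD, n = 3 each), 3.14-fold higher (limma adjusted p = 6.5e-05). The 2 other MMP2 probe sets were dim, differed by -0.004 and 0.021 (log2) and were not called. MMP9 rose 1.78-fold (limma adjusted p = 0.021), but its call was lost without each array in turn other than treated array 1 (adjusted p up to 0.089) and with the replicate block (adjusted p = 0.058). MMP7, which cleaves osteopontin, fell to 4.89 ± 0.16 in treated cells, against 6.89 ± 0.33 in untreated cells (log2, SD, n = 3 each; limma adjusted p = 3.9e-04). BMP1, which cuts the DSPP and DMP1 precursors, differed by 0.55 and missed the threshold (limma adjusted p = 0.052).

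Markers of the cells that normally make these proteins were mixed. Each marker was read by its brightest probe set, a choice that favours levels above the array median. Of 10 measured markers of osteoblasts, odontoblasts and ameloblasts, 4 (RUNX2, COL1A1, PHEX and KLK4) lay above the array median on all 6 arrays, and 4 (ALPL, AMELX, MMP20 and SOST) lay below it on all 6. Their mean level over the list was 5.13 to 5.24 on treated and 4.87 to 5.02 on untreated arrays, and COL1A1 was the 1 member called. Of 8 fibroblast markers, 1 (COL1A1) was called, and the mean level was 4.54 to 4.63 on treated and 4.27 to 4.41 on untreated arrays. Of 6 leukocyte and endothelial markers 0 were called (limma, 1 at an unadjusted p below 0.05), at 4.005 to 4.048 on treated and 4.07 to 4.12 on untreated arrays. The part of other cells in the ODAPH difference was not tested.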

How the data were processed

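The authors deposited 1 log2 expression value for each probe set on each array. Affymetrix Expression Console and RMA, which subtracts background, equalises arrays and combines probes, are named in the submitters' processing notes. Versions and options are not stated in the sources used here, no detection call was used, and values from 1.57 to 14.5 fit a log2 scale. Of 54675 probe sets, 62 controls were left out. Names came from the platform annotation (41091 probe sets with 1 symbol, 1801 with several, 11721 without). RefSeq GRCh38.p14 gave gene order and start regions, and all 9 members matched.

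The main comparison was 1 limma fit (version 3.58.1, R 4.3.3; lmFit, eBayes, no covariate or filter) over 54613 probe sets with Benjamini-Hochberg adjustment, and a call is an adjusted p below 0.05. A positive difference means higher with TGF-β1. The number of arrays limits the precision. The fit was also run on simulated arrays. These held independent normal values per probe set, without the RNA quality difference of the arrays numbered 1, so nothing is read from them. Members and lists were chosen with earlier results of these data known. All members, the up to 4 smallest p-values per list, 10 neighbours of ODAPH, the 5 genes most like it and SMAD7 were eligible to be named; ITGB1, CD44, SPARC, AMELX, KLK4, MMP20, ALPL, RUNX2, CDH1, PERP, SFN, DSG3 and SOST were named outside this rule, after their values were seen. The lists had 17 entries without a single-name probe set, which were not analysed here. Alternatives were other normalisations, filters, variance models, array weights, a replicate block, an RNA quality covariate, 1 probe set per gene and the removal of arrays. Deviations of same-numbered arrays correlated at 0.181, 0.039 and 0.079.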

Additional observations from a re-analysis of the deposited data

How the results depend on the processing

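Over 15 alternatives the ODAPH difference ran from 3.73 to 3.87 (log2). ODAPH was the 1 member probe set called in each, which is no sign of stability since it was chosen for the highest difference on the same arrays. Each of the other 12 was fitted under 13 to 15 of the alternatives, depending on the filter on dim probe sets and on the choice of 1 probe set per gene, and was called in none of those. The SPP1 difference ran from -0.075 to 0.109, and it had no value among probe sets above the median level. The number of all probe sets called was 1771. It was 3229 among probe sets above the median level only, 3842 with a trended robust variance, 588 without both arrays numbered 1 and 785 to 1209 without single arrays, where fewer samples enter the fit. With 1 probe set per gene it was 1680 of 19775. With the replicate number as a block it was 1198. The number was not taken to pair the arrays, since 2 of the 3 correlations of their deviations lay below 0.1, although the arrays numbered 1 correlated at 0.181 and shared a high 3' to 5' ratio. The block left 8 of the 10 called list genes called, and it changed no member call. List genes called were 10, with 7 to 10 without single arrays and 6 without both arrays numbered 1. Of ODAPH's neighbours 0 were called, and 1 in the fit with 1 probe set per gene, BTC at -0.304. Of 13 called genes named or listed, 8 kept their call under every alternative. The calls of ITGA5 and ITGB5 were lost without both arrays numbered 1 (limma adjusted p = 0.052 and 0.053), and those of ITGB8 (0.12) and ITGB1 (0.16) were lost there too. ITGB1 also lost its call after repeated quantile normalisation (0.054), and the other losses of ITGB1, ITGB8 and MMP9 are given beside their values. No direction of these 13 turned. Dim values, with no detection call, limit what can be said of most members.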
